A study of Mus musculus with 20 samples.

Results

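ADAM proteins are membrane-anchored metalloproteinases that shed the outer parts of other cell surface proteins, ADAMTS proteins are secreted relatives with thrombospondin type 1 repeats that cut the extracellular matrix, and ADAMTS-like proteins share those repeats but lack the protease domain. Members were taken by gene name, as every gene called Adam, Adamts or Adamtsl followed by a number and at most 1 further letter, which gave 41 of the 22660 genes in the count table, with 18 ADAM, 18 ADAMTS and 5 ADAMTS-like genes. RNA was sequenced from the plantaris muscle of 20 male C57BL/6J mice, 2 years of age by the labels, each of them a different animal. Mechanical overload (MOV) of the plantaris was induced by cutting out part of the gastrocnemius and soleus, its synergists, and sham mice had the skin opened only. D + Q is a gavage of dasatinib (5 mg/kg), a tyrosine kinase inhibitor, with quercetin (50 mg/kg), a flavonoid from plants, and control mice received the vehicle. Sham and MOV mice were each divided into vehicle and D + Q groups of 5 mice, gavaged on days 7 and 10 and collected at day 14 after surgery (for sham mice, the text of the series puts the later gavage at day 14). The total count was 17887532 to 26234518 in vehicle sham mice, 18535681 to 23468048 in D + Q sham mice, 18260903 to 22092838 in vehicle MOV mice and 18879818 to 23076398 in D + Q MOV mice.

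ADAM proteases release growth factors, cytokines and receptor fragments from the cell surface, and several of them were first described in fusing or regenerating muscle cells. ADAMTS proteases trim fibrillar procollagens or cut large proteoglycans such as aggrecan and versican, and ADAMTS-like proteins bind the fibrillin microfibrils of the matrix. In muscle many of these genes are expressed by the connective tissue, vessel and satellite cells that lie between the fibers.

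Promoter sequences are shown for 3 members that the results turn on, namely Adam19 and Adamts12, which were among the members at least 2-fold higher with MOV in both treatments, and Adamts1, which had the lowest p of the family between D + Q and vehicle in sham mice. They are taken 5′ to 3′ from RefSeq's promoter table (assembly GRCm38.p6), with annotated exon bases left out and each stretch placed on GRCm39 by a unique match. Capitals mark the letters TGANTCA, the core of AP-1 sites. The stretches lie at chr11:45946561-45946774 on the plus strand (Adam19, 214 bases, 1 of 3 Adam19 starts in the table), chr16:85600010-85600251 on the minus strand (Adamts1, 242 bases) and chr15:11064609-11064858 on the plus strand (Adamts12, 250 bases).
Adam19: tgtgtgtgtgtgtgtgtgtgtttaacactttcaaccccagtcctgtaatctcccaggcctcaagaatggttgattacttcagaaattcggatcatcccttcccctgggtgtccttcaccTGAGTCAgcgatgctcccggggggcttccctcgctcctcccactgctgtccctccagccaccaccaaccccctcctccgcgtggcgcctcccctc
Adamts1: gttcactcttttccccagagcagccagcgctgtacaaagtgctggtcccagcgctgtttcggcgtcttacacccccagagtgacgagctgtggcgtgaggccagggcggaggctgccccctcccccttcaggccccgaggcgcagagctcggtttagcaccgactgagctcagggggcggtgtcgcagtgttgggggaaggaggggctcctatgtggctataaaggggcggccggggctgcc
Adamts12: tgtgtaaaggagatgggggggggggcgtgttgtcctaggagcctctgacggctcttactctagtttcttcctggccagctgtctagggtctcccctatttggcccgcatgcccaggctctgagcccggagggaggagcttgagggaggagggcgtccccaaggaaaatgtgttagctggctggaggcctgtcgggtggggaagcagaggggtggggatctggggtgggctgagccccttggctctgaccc
Of the 41 members, 23 had an entry in the table. TGANTCA was searched on both strands of the 250 bases before each start, and it was found in 1 of the 23 members (Adam19, 131 bases before the start printed here, with none before its other 2 starts) and in 7.82% of 27025 genes. GGAATG, the core of TEAD sites, was found in 1 of the 23 members (Adam19 again, in annotated exon bases that are not printed) and in 14.4% of the same genes. These are matches of letters, with no measure of binding.

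Expression is given as CPM, the counts of a gene relative to its library's total once that is scaled by edgeR's TMM factor over the 20 mice, and levels of different genes are compared per kilobase of annotated exon. Sums and shares are in CPM, where genes with longer exons weigh more. In vehicle sham muscle the highest levels per kilobase were 22.2 CPM per kb for Adam9, 6.99 for Adamtsl5, 5.58 for Adamts1 and 4.61 for Adamtsl4. In vehicle MOV muscle Adam9 was at 19.0 CPM per kb, Adamtsl5 at 9.02, Adamts1 at 7.73 and Adamts2 at 6.64. The plot of levels per kilobase shows the tested members of each subfamily in the order of their mean level over the 20 mice. Summed over its members, the ADAM subfamily stood at 168 ± 9.71 CPM in vehicle sham, 179 ± 8.07 in D + Q sham, 268 ± 28.5 in vehicle MOV and 295 ± 17.5 in D + Q MOV mice (mean ± SD, n = 5 each). ADAMTS sums were 86.0 ± 5.41, 113 ± 13.3, 260.1 ± 58.2 and 322 ± 26.9 CPM in the same order, and ADAMTS-like sums were 77.5 ± 11.2, 74.5 ± 7.00, 104 ± 3.44 and 106 ± 2.69 CPM. In all 3 subfamilies the sum was larger with MOV. Adam9 made up 57.8% of the ADAM sum in vehicle sham and 30.9% in vehicle MOV mice, and Adamtsl5 made up 57.9% and 55.9% of the ADAMTS-like sum. In whole muscle RNA, fewer cells of a type and less RNA per cell cannot be told apart, nor can more cells and more RNA per cell.

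**Figure D1:**
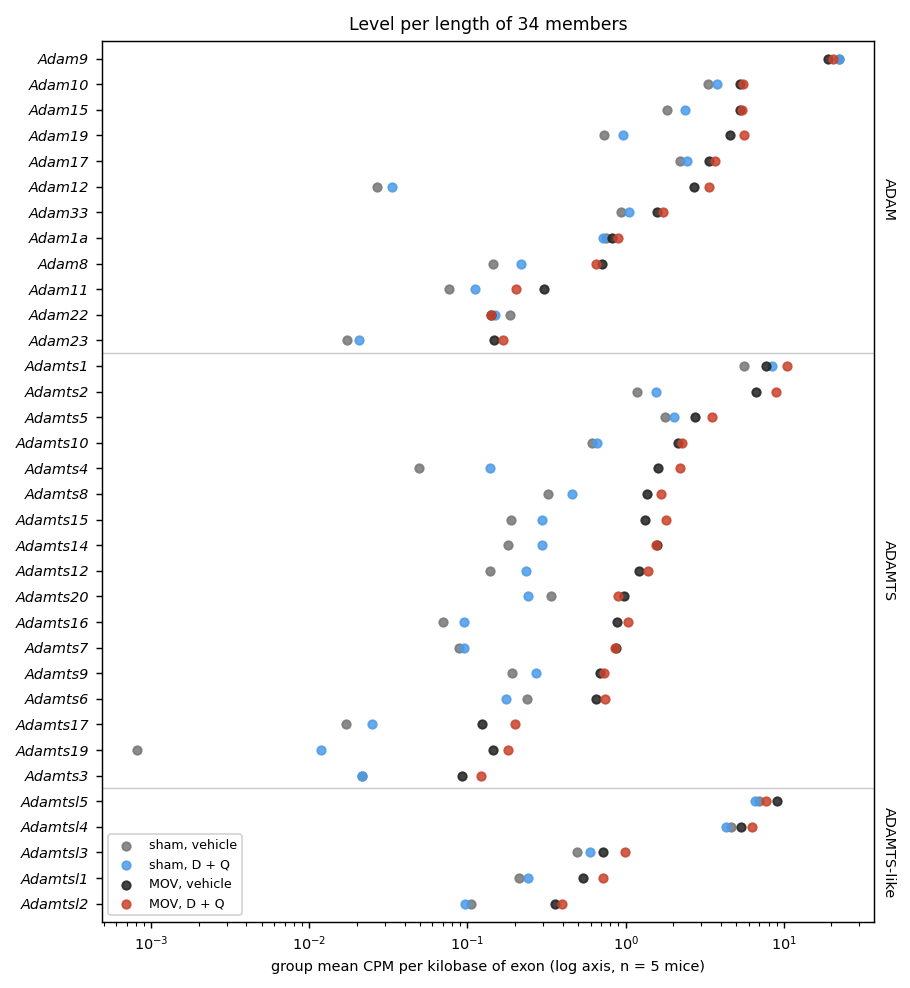
Mean level of the 34 tested members in CPM per kilobase of exon in the 4 groups, by subfamily. Adam9 stands highest in every group.

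**Figure D2:**
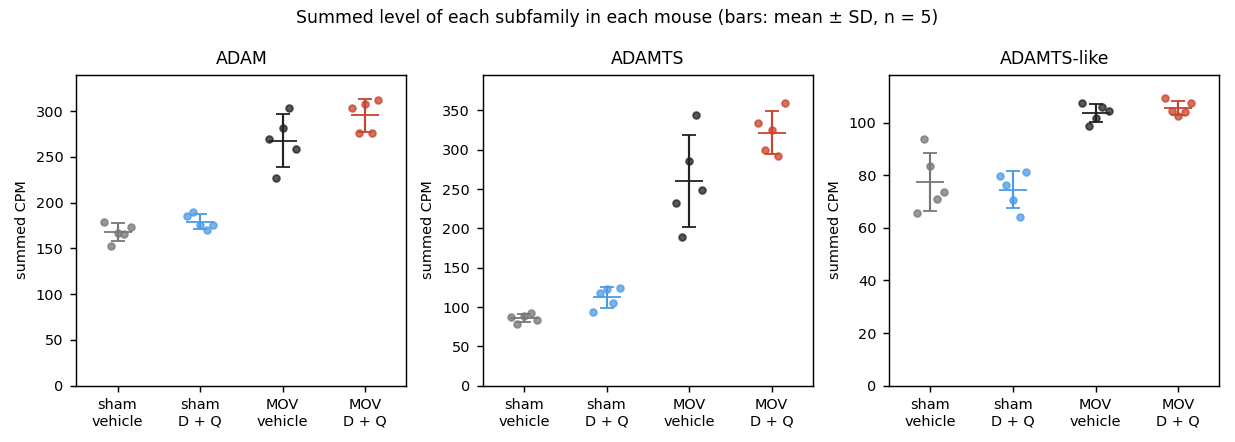
Summed CPM of the ADAM, ADAMTS and ADAMTS-like members in each of the 20 mice, by group, with the group mean and SD. MOV groups lie above sham groups, most of all for ADAMTS (86.0 CPM in vehicle sham and 260.1 CPM in vehicle MOV on average).

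The first question was how the family differs between overloaded and sham muscle. A gene was tested where 5 or more of the 10 mice compared reached 10 counts, with edgeR's quasi-likelihood test, and a member was called at a Benjamini-Hochberg adjusted p under 0.05 over all genes tested. With vehicle, 29 of the 34 members tested were higher in MOV muscle (9 of 12 ADAM, 17 of 17 ADAMTS and 3 of 5 ADAMTS-like), against 30.7% of all 14601 genes tested. The only member called lower was Adam9, which is called higher when counts are scaled by library totals alone, against 29.8% of all genes. At least 2-fold higher and called were 23 members (6 ADAM, 15 ADAMTS and 2 ADAMTS-like), against 17.8% of all genes. With D + Q, 29 of 34 members were higher (8 of 12 ADAM, 16 of 17 ADAMTS and 5 of 5 ADAMTS-like), against 34.4% of 14913 genes, and 22 were at least 2-fold higher, against 19.2%. In the same comparison edgeR called 0 members lower, against 30.9% of all genes, with 0 at an unadjusted p under 0.05 (32.4% of all genes) and 0 by DESeq2 (31.9%). The median log2 fold change of the tested members was 1.85 with vehicle (ADAM 1.16, ADAMTS 2.50, ADAMTS-like 0.57) and 1.88 with D + Q (ADAM 0.83, ADAMTS 2.54, ADAMTS-like 0.77), where the median of all genes was -0.02 and 0.02. Every MOV mouse lay above every sham mouse in 27 of 34 members with vehicle (23.7% of all genes) and 26 of 34 with D + Q (26.2%). The reverse held for 1 member, Adam9, in each treatment (22.8% and 26.9% of all genes).

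The comparisons in vehicle and in D + Q mice use different animals. In both, 27 members were called higher, which is 93.1% of the 29 in each list, where, over all genes tested in both treatments, the shared ones made up 92.8% of those higher with vehicle and 83.4% of those higher with D + Q. The 2-fold calls shared numbered 22 of the 34 members tested in both treatments, against 2307 of 14442 genes. Adam11 and Adamts1 were called with vehicle only, and Adamtsl3 and Adamtsl4 with D + Q only, and for none of the 4 did the difference between treatments pass the edgeR interaction test (adjusted p of 0.862, 0.978, 0.982 and 0.855). Members that reached 10 counts only in MOV mice had to come out higher. With vehicle these were Adam23, Adamts3, Adamts17 and Adamts19, and with D + Q the last 3. Further members passed the filter only through MOV mice, because fewer than 5 sham mice reached 10 counts. With vehicle this held for Adam8, Adam11, Adam12, Adamts4, Adamts7, Adamts8, Adamts16 and Adamtsl2. With D + Q it held for Adam11, Adam12, Adam23, Adamts7, Adamts16 and Adamtsl2. The filter favors a rise in all of these, so the counts of members called higher are a description of the members measured. Scaling by total counts alone moved the median log2 fold change of all genes to 0.36 with vehicle and 0.39 with D + Q, and 33 of 34 members were then higher in each treatment, against 52.6% of all genes with vehicle and 56.3% with D + Q. Under that scaling 84.1% of all called genes were higher with vehicle and 83.5% with D + Q, compared with 50.8% and 52.6% under TMM. Relative to the median of all genes the members' median was 1.86 with TMM and 1.87 with total counts in vehicle mice.

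**Figure D3:**
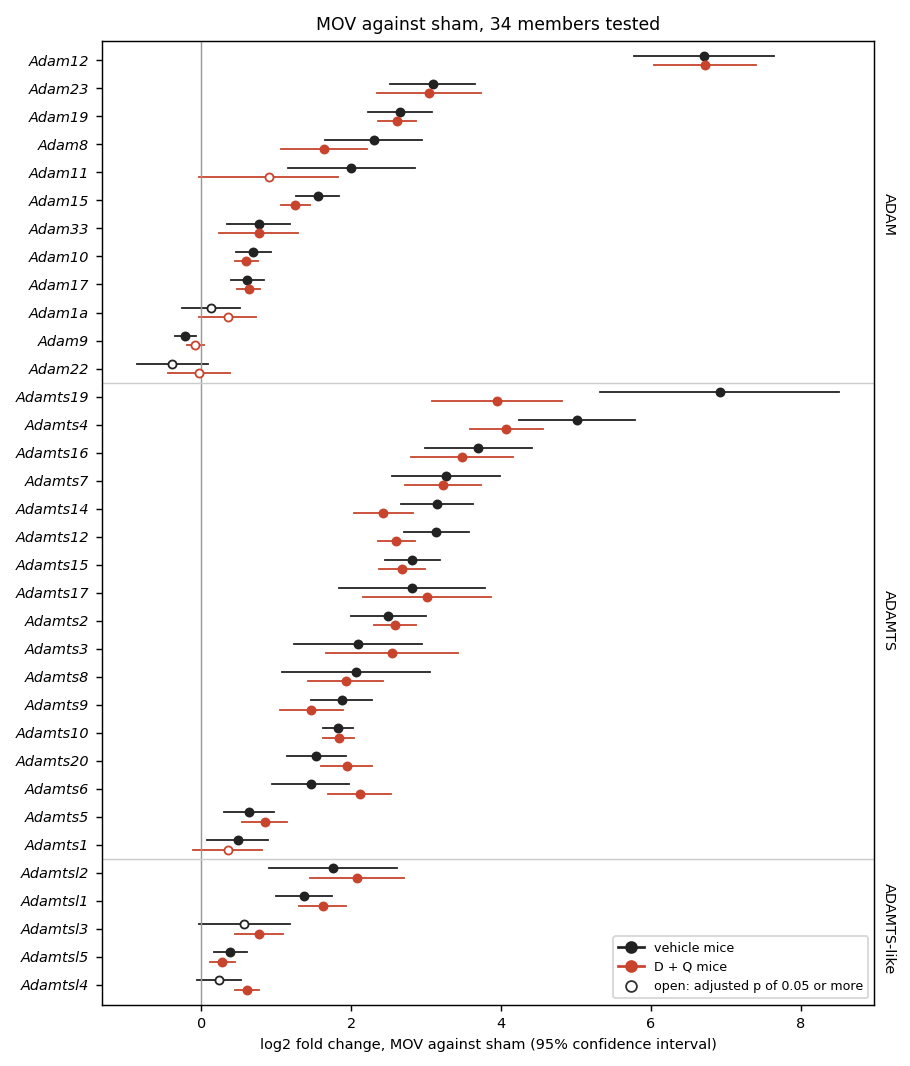
Log2 fold change of each tested member between MOV and sham muscle with its 95% interval, with vehicle and with D + Q. All fitted ADAMTS values lie above 0, and Adam9 lies below 0 with vehicle (-0.21) but at 0.17 when counts are scaled by library totals alone.

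Among the catalytic ADAM members, Adam12 had the largest rise. All positions in parentheses are gene spans in GRCm39 (GENCODE vM39), and values within a group are in the order of mouse 1 to 5, a number that in the labels only names the mouse. Adam12 (chr7:133484928-133833875), meltrin alpha, which is expressed in regenerating muscle and in activated mesenchymal cells, was at 0.0460, 0.805, 0.387, 0.175 and 0 CPM in vehicle sham mice and at 33.9, 18.9, 30.5, 28.0 and 32.6 CPM in vehicle MOV mice. Adam12 values in D + Q mice were 0.210, 0.670, 0.0488, 0.631 and 0.204 CPM with sham surgery and 35.9, 30.2, 45.3, 27.2 and 40.2 CPM with MOV. For Adam12 every MOV mouse lay above every sham mouse of its treatment. Adam12 rose by a log2 fold change of 6.71 ± 0.42 with vehicle (SE; edgeR adjusted p = 2.62e-07) and 6.72 ± 0.31 with D + Q (edgeR adjusted p = 7.42e-09). With a mouse left out the value with vehicle ranged from 6.38 to 7.63. Adam19 (chr11:45946775-46038172), meltrin beta, a sheddase of neuregulins, was at 4.74, 4.08, 4.51, 6.23 and 7.30 CPM in vehicle sham mice and at 30.1, 25.5, 38.4, 44.9 and 28.0 CPM in vehicle MOV mice. Adam19 values in D + Q mice were 5.72, 8.76, 7.70, 6.07 and 6.87 CPM with sham surgery and 43.3, 33.1, 46.0, 38.2 and 45.9 CPM with MOV. For Adam19 every MOV mouse lay above every sham mouse of its treatment. Adam19 rose by a log2 fold change of 2.65 ± 0.20 with vehicle (SE; edgeR adjusted p = 3.12e-07) and 2.61 ± 0.12 with D + Q (edgeR adjusted p = 7.15e-11). Adam15 (chr3:89245846-89257511), a disintegrin of endothelial and other cells, was at 11.7, 13.6, 13.8, 15.7 and 17.5 CPM in vehicle sham mice and at 44.1, 31.4, 43.0, 51.6 and 39.4 CPM in vehicle MOV mice. Adam15 values in D + Q mice were 22.2, 20.1, 16.3, 15.5 and 19.6 CPM with sham surgery and 43.9, 45.6, 38.9, 40.9 and 46.9 CPM with MOV. For Adam15 every MOV mouse lay above every sham mouse of its treatment. Adam15 rose by a log2 fold change of 1.55 ± 0.13 with vehicle (SE; edgeR adjusted p = 3.31e-07) and 1.25 ± 0.09 with D + Q (edgeR adjusted p = 2.48e-09). Adam8 (chr7:139558845-139572475), a sheddase of leukocytes, was at 0.828, 0.345, 0.709, 0.640 and 0.824 CPM in vehicle sham mice and at 3.33, 1.81, 3.11, 4.77 and 3.42 CPM in vehicle MOV mice. Adam8 values in D + Q mice were 0.787, 1.83, 1.17, 0.777 and 0.509 CPM with sham surgery and 3.01, 3.70, 2.65, 2.77 and 2.92 CPM with MOV. For Adam8 every MOV mouse lay above every sham mouse of its treatment. Adam8 rose by a log2 fold change of 2.30 ± 0.30 with vehicle (SE; edgeR adjusted p = 1.09e-05) and 1.63 ± 0.27 with D + Q (edgeR adjusted p = 4.33e-05).

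Adam10 (chr9:70586221-70687511), the alpha-secretase that cuts Notch receptors and many other surface proteins, was at 20.6, 15.6, 17.3, 17.8 and 20.6 CPM in vehicle sham mice and at 27.3, 24.4, 33.8, 34.1 and 27.5 CPM in vehicle MOV mice. Adam10 values in D + Q mice were 21.1, 22.03, 19.3, 22.3 and 20.9 CPM with sham surgery and 35.0, 28.8, 30.6, 28.0 and 32.1 CPM with MOV. For Adam10 every MOV mouse lay above every sham mouse of its treatment. Adam10 rose by a log2 fold change of 0.69 ± 0.11 with vehicle (SE; edgeR adjusted p = 6.18e-05) and 0.60 ± 0.07 with D + Q (edgeR adjusted p = 1.25e-06). Adam9 (chr8:25439626-25507096), meltrin gamma, a widely expressed sheddase, was at 107, 86.4, 99.0, 96.3 and 95.05 CPM in vehicle sham mice and at 84.1, 82.7, 85.0, 81.2 and 80.9 CPM in vehicle MOV mice. Adam9 values in D + Q mice were 103.3, 101, 96.2, 92.6 and 93.7 CPM with sham surgery and 88.3, 90.8, 84.4, 91.2 and 90.5 CPM with MOV. For Adam9 every MOV mouse lay below every sham mouse in both treatments, at a log2 fold change of -0.21 ± 0.07 with vehicle (SE; edgeR adjusted p = 0.0103) and -0.08 ± 0.05 with D + Q (edgeR adjusted p = 0.184), whereas total-count scaling turned these to 0.17 and 0.28, so its direction is one relative to the other genes. Adam17 and Adam33 fall outside the rule for members given in full and were chosen after their values were seen. Adam17, the TNF-converting enzyme, rose by a log2 fold change of 0.61 with vehicle (edgeR adjusted p = 8.83e-05) and 0.63 with D + Q (edgeR adjusted p = 4.47e-07), and Adam33 rose by 0.76 and 0.76 (edgeR adjusted p = 0.00372 and 0.0142).

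Of the ADAM members without catalytic activity, Adam23 and Adam22 encode receptors of LGI1 in nerve. Adam23 (chr1:63484875-63635436), which is found mainly in brain, was at 0.322, 0.230, 0.258, 0.349 and 0.471 CPM in vehicle sham mice and at 2.53, 2.96, 3.01, 3.06 and 2.41 CPM in vehicle MOV mice. Adam23 values in D + Q mice were 0.420, 0.243, 0.488, 0.243 and 0.560 CPM with sham surgery and 3.21, 1.79, 4.02, 2.32 and 4.56 CPM with MOV. For Adam23 every MOV mouse lay above every sham mouse of its treatment. Adam23 rose by a log2 fold change of 3.08 ± 0.27 with vehicle (SE; edgeR adjusted p = 1.94e-07) and 3.04 ± 0.33 with D + Q (edgeR adjusted p = 2.68e-07). Adam11 (chr11:102652229-102671088), another member without an active site that is expressed in nerve, was at 0.506, 0.230, 0.258, 0.582 and 0.589 CPM in vehicle sham mice and at 3.13, 1.61, 1.18, 1.88 and 0.929 CPM in vehicle MOV mice. Adam11 values in D + Q mice were 0.787, 0.852, 0.195, 0.243 and 1.12 CPM with sham surgery and 0.977, 0.535, 1.92, 1.03 and 1.28 CPM with MOV. For Adam11 the vehicle groups did not overlap (log2 fold change 2.00 ± 0.40, edgeR adjusted p = 0.000471), whereas the D + Q groups did, at 0.90 ± 0.44 (edgeR adjusted p = 0.0827). Without D + Q MOV mouse 2 or D + Q sham mouse 5 the latter passed the threshold (edgeR adjusted p = 0.0367 and 0.0336). Adam22, chosen after its values were seen, had 2.42 to 5.11 CPM in vehicle sham and 2.29 to 3.85 CPM in vehicle MOV mice, at a log2 fold change of -0.39 (edgeR adjusted p = 0.141). It was called lower, at -0.54 (edgeR adjusted p = 0.0453), without vehicle MOV mouse 4, and stood at -0.23 without vehicle sham mouse 1 and at 0.00 under total-count scaling. The Adam22 exons share 6137 bases with Sri on the opposite strand, and whether the counting used strand is not given in the sources used here, so reads of the 2 genes may be mixed. The same applies to smaller overlaps, the largest of them in Adamts9 (1835 bases), Adam15 (1513), Adam19 (1067), Adamtsl2 (548), Adamts8 (547), Adamts3 (450), Adam9 with Tm2d2 (396) and Adam17 with Iah1 (341).

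Adam1a, which encodes the alpha subunit of the sperm protein fertilin, was at 2.15 to 3.09 CPM in vehicle sham and 2.49 to 3.21 CPM in vehicle MOV mice and was not called in any comparison with TMM scaling. Under total counts only Adam1a was called higher with MOV in both treatments (0.50 log2 with vehicle, edgeR adjusted p = 0.0268, and 0.72 with D + Q, edgeR adjusted p = 0.00297). Its counts are uncertain, because Adam1b is a close paralog and 771 of the Adam1a exon bases also belong to Gm42878 on the same strand. The 7 members that the count filter kept from being tested were Adam4, Adam5, Adam21, Adam32 and Adam1b, known from testis, with Adam28, known from lymphocytes, and Adamts18, and their highest count in any mouse was 3 to 19. Adam5 had 3 counts in all 5 vehicle sham mice together and 33 in vehicle MOV mice, a ratio of 8.72 per unit of depth (95% counting interval 2.74 to 44.5), and with D + Q 3 and 57 counts, a ratio of 15.2 (4.95 to 76.0). Adamts18 had 3 and 25 counts with vehicle, a ratio of 6.61 (2.02 to 34.2), and 6 and 30 counts with D + Q. Adam32 had 5 and 23 counts with vehicle but 19 and 9 with D + Q. These intervals cover counting error only, not the spread between mice. With no filter edgeR called Adam5 higher with MOV in both treatments (edgeR adjusted p = 0.0124 and 0.000186) and Adamts18 with vehicle (edgeR adjusted p = 0.0284). The testis markers Prm2 and Tnp1 were not among the genes analysed here, Odf1 had at most 3 counts in any mouse, and the 5-gene testis list summed to 0.556 CPM in vehicle sham and 0.468 CPM in vehicle MOV mice.

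The procollagen N-proteinases remove the amino-terminal propeptides of fibrillar collagens. Adamts2 (chr11:50492787-50698400), the main N-proteinase of type I procollagen, was at 13.1, 9.26, 8.25, 15.0 and 10.5 CPM in vehicle sham mice and at 62.5, 38.6, 70.4, 83.9 and 58.9 CPM in vehicle MOV mice. Adamts2 values in D + Q mice were 11.1, 19.4, 15.8, 11.6 and 15.1 CPM with sham surgery and 89.2, 76.3, 88.8, 81.0 and 87.8 CPM with MOV. For Adamts2 every MOV mouse lay above every sham mouse of its treatment. Adamts2 rose by a log2 fold change of 2.50 ± 0.22 with vehicle (SE; edgeR adjusted p = 3.96e-06) and 2.59 ± 0.13 with D + Q (edgeR adjusted p = 2.9e-09). Adamts14 (chr10:61032891-61109232), which acts on the same substrate, was at 1.196, 0.920, 1.03, 1.16 and 0.942 CPM in vehicle sham mice and at 9.11, 5.44, 12.5, 10.6 and 8.61 CPM in vehicle MOV mice. Adamts14 values in D + Q mice were 1.31, 1.89, 1.80, 1.99 and 1.63 CPM with sham surgery and 9.97, 8.21, 10.98, 5.80 and 10.1 CPM with MOV. For Adamts14 every MOV mouse lay above every sham mouse of its treatment. Adamts14 rose by a log2 fold change of 3.14 ± 0.22 with vehicle (SE; edgeR adjusted p = 3.56e-08) and 2.43 ± 0.19 with D + Q (edgeR adjusted p = 4.01e-09). Adamts3 (chr5:89822720-90031649), which also activates VEGF-C, was at 0.276, 0.115, 0.258, 0.175 and 0.353 CPM in vehicle sham mice and at 0.883, 0.518, 1.32, 1.36 and 0.971 CPM in vehicle MOV mice. Adamts3 values in D + Q mice were 0.105, 0.487, 0.244, 0.194 and 0.153 CPM with sham surgery and 1.68, 1.45, 1.88, 0.803 and 0.796 CPM with MOV. For Adamts3 every MOV mouse lay above every sham mouse of its treatment. Adamts3 rose by a log2 fold change of 2.08 ± 0.40 with vehicle (SE; edgeR adjusted p = 0.000359) and 2.54 ± 0.42 with D + Q (edgeR adjusted p = 3.81e-05). Of the 3, Adamts2 had the highest level per kilobase in vehicle MOV muscle (6.64 CPM per kb, against 1.59 for Adamts14 and 0.0924 for Adamts3).

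The proteoglycanases cut aggrecan, versican and related proteoglycans. Adamts4 (chr1:171077986-171089841), known as aggrecanase 1, was at 0.184, 0.345, 0.193, 0.291 and 0.589 CPM in vehicle sham mice and at 7.10, 5.60, 13.7, 14.0 and 11.3 CPM in vehicle MOV mice. Adamts4 values in D + Q mice were 0.997, 1.58, 0.488, 0.874 and 0.509 CPM with sham surgery and 15.0, 12.8, 13.1, 11.8 and 18.5 CPM with MOV. For Adamts4 every MOV mouse lay above every sham mouse of its treatment. Adamts4 rose by a log2 fold change of 5.01 ± 0.36 with vehicle (SE; edgeR adjusted p = 9.79e-08) and 4.07 ± 0.23 with D + Q (edgeR adjusted p = 5.82e-10). Adamts15 (chr9:30810451-30833863), a versicanase that is expressed in developing muscle, was at 2.35, 1.44, 1.68, 1.86 and 2.59 CPM in vehicle sham mice and at 14.3, 11.5, 13.8, 17.6 and 12.5 CPM in vehicle MOV mice. Adamts15 values in D + Q mice were 2.36, 4.14, 2.39, 3.35 and 3.16 CPM with sham surgery and 22.2, 20.5, 18.8, 15.8 and 17.2 CPM with MOV. For Adamts15 every MOV mouse lay above every sham mouse of its treatment. Adamts15 rose by a log2 fold change of 2.82 ± 0.17 with vehicle (SE; edgeR adjusted p = 8.86e-09) and 2.67 ± 0.14 with D + Q (edgeR adjusted p = 7.79e-11). Adamts5 (chr16:85653061-85698716), known as aggrecanase 2, was at 17.6, 18.5, 19.8, 20.9 and 20.4 CPM in vehicle sham mice and at 26.6, 21.1, 31.7, 42.7 and 27.3 CPM in vehicle MOV mice. Adamts5 values in D + Q mice were 19.8, 26.8, 24.1, 17.9 and 22.5 CPM with sham surgery and 49.4, 37.2, 40.5, 34.1 and 31.1 CPM with MOV. For Adamts5 every MOV mouse lay above every sham mouse of its treatment. Adamts5 rose by a log2 fold change of 0.64 ± 0.15 with vehicle (SE; edgeR adjusted p = 0.00316) and 0.84 ± 0.14 with D + Q (edgeR adjusted p = 0.000134). Adamts1 (chr16:85590579-85600009), a versicanase that is induced early by many stimuli, was at 28.8, 29.1, 35.7, 30.7 and 28.2 CPM in vehicle sham mice and at 27.1, 35.0, 43.0, 61.7 and 44.7 CPM in vehicle MOV mice. Adamts1 values in D + Q mice were 38.5, 38.7, 54.8, 44.2 and 55.3 CPM with sham surgery and 47.4, 58.4, 46.7, 46.4 and 87.1 CPM with MOV. For Adamts1 the MOV and sham values overlapped in both treatments, and the log2 fold change was 0.48 ± 0.18 with vehicle (SE; edgeR adjusted p = 0.0401) and 0.35 ± 0.20 with D + Q (edgeR adjusted p = 0.164). The call with vehicle was lost when any 1 of 7 of the 10 mice was left out (vehicle MOV mice 3, 4 and 5 and vehicle sham mice 1, 2, 4 and 5; edgeR adjusted p of 0.0614 to 0.0797), and without vehicle MOV mouse 4, the highest of its group, the log2 fold change was 0.31. With D + Q it was 0.15 without D + Q MOV mouse 5, the highest of its group.

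Adamts9 (chr6:92749680-92920520), a versicanase needed in development, was at 2.94, 2.88, 2.26, 2.39 and 3.88 CPM in vehicle sham mice and at 8.67, 8.24, 13.1, 13.4 and 8.82 CPM in vehicle MOV mice. Adamts9 values in D + Q mice were 4.15, 4.38, 4.29, 3.398 and 4.38 CPM with sham surgery and 10.6, 6.42, 9.31, 14.4 and 14.4 CPM with MOV. For Adamts9 every MOV mouse lay above every sham mouse of its treatment. Adamts9 rose by a log2 fold change of 1.87 ± 0.19 with vehicle (SE; edgeR adjusted p = 1.05e-06) and 1.46 ± 0.20 with D + Q (edgeR adjusted p = 9.2e-06). Adamts20 (chr15:94166170-94363299), its closest relative, known from pigment cell migration, was at 4.32, 2.65, 6.19, 3.26 and 4.06 CPM in vehicle sham mice and at 9.51, 12.3, 13.6, 11.3 and 12.1 CPM in vehicle MOV mice. Adamts20 values in D + Q mice were 2.15, 2.98, 2.24, 4.08 and 3.21 CPM with sham surgery and 12.9, 10.5, 9.95, 9.59 and 11.6 CPM with MOV. For Adamts20 every MOV mouse lay above every sham mouse of its treatment. Adamts20 rose by a log2 fold change of 1.53 ± 0.18 with vehicle (SE; edgeR adjusted p = 4.95e-06) and 1.94 ± 0.16 with D + Q (edgeR adjusted p = 1.03e-08). Adamts8 (chr9:30853809-30875134), a proteoglycanase first linked to the inhibition of vessel growth, was at 2.58, 0.460, 1.55, 2.62 and 0.471 CPM in vehicle sham mice and at 6.78, 3.32, 7.67, 8.88 and 5.61 CPM in vehicle MOV mice. Adamts8 values in D + Q mice were 1.26, 2.43, 1.56, 3.54 and 1.99 CPM with sham surgery and 7.19, 10.5, 8.76, 6.25 and 6.95 CPM with MOV. For Adamts8 every MOV mouse lay above every sham mouse of its treatment. Adamts8 rose by a log2 fold change of 2.06 ± 0.45 with vehicle (SE; edgeR adjusted p = 0.00197) and 1.93 ± 0.23 with D + Q (edgeR adjusted p = 2.69e-06). In all 7 proteoglycanases the fitted difference between MOV and sham was positive in both treatments, with Adamts1 with D + Q the only one of these values not called.

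Adamts7 and Adamts12 cut cartilage oligomeric matrix protein (COMP). Adamts12 (chr15:11064876-11349318), which is expressed in mesenchymal cells, was at 1.75, 1.55, 1.10, 1.80 and 1.35 CPM in vehicle sham mice and at 13.9, 8.19, 16.01, 15.9 and 12.3 CPM in vehicle MOV mice. Adamts12 values in D + Q mice were 2.15, 2.80, 2.49, 2.57 and 2.85 CPM with sham surgery and 17.9, 14.4, 15.0, 14.0 and 14.4 CPM with MOV. For Adamts12 every MOV mouse lay above every sham mouse of its treatment. Adamts12 rose by a log2 fold change of 3.13 ± 0.20 with vehicle (SE; edgeR adjusted p = 1.61e-08) and 2.60 ± 0.12 with D + Q (edgeR adjusted p = 9.67e-12). Adamts7 (chr9:90045062-90090124), its closest relative, was at 1.10, 0.345, 0.516, 0.582 and 0.235 CPM in vehicle sham mice and at 4.70, 4.25, 4.24, 8.44 and 5.87 CPM in vehicle MOV mice. Adamts7 values in D + Q mice were 0.630, 0.791, 0.341, 0.728 and 0.509 CPM with sham surgery and 6.18, 3.82, 6.75, 4.51 and 5.97 CPM with MOV. For Adamts7 every MOV mouse lay above every sham mouse of its treatment. Adamts7 rose by a log2 fold change of 3.26 ± 0.34 with vehicle (SE; edgeR adjusted p = 1.18e-06) and 3.23 ± 0.24 with D + Q (edgeR adjusted p = 3.26e-09). Another set of ADAMTS members binds or cuts fibrillin microfibrils. Adamts10 (chr17:33742987-33772758), a fibrillin-1 partner, was at 8.74, 7.94, 7.35, 8.73 and 7.47 CPM in vehicle sham mice and at 26.8, 26.5, 29.1, 32.8 and 26.3 CPM in vehicle MOV mice. Adamts10 values in D + Q mice were 7.24, 9.25, 9.07, 7.48 and 10.1 CPM with sham surgery and 29.2, 24.8, 31.4, 31.4 and 31.9 CPM with MOV. For Adamts10 every MOV mouse lay above every sham mouse of its treatment. Adamts10 rose by a log2 fold change of 1.82 ± 0.09 with vehicle (SE; edgeR adjusted p = 1.81e-09) and 1.83 ± 0.10 with D + Q (edgeR adjusted p = 8.54e-11). Adamts6 (chr13:104424343-104633203), the closest relative of Adamts10, was at 2.16, 1.73, 1.87, 1.92 and 1.65 CPM in vehicle sham mice and at 5.10, 3.06, 4.33, 8.22 and 4.77 CPM in vehicle MOV mice. Adamts6 values in D + Q mice were 0.892, 1.22, 1.51, 1.60 and 1.58 CPM with sham surgery and 4.34, 5.42, 5.98, 5.44 and 7.57 CPM with MOV. For Adamts6 every MOV mouse lay above every sham mouse of its treatment. Adamts6 rose by a log2 fold change of 1.46 ± 0.24 with vehicle (SE; edgeR adjusted p = 9.23e-05) and 2.11 ± 0.20 with D + Q (edgeR adjusted p = 5.11e-08). Adamts17 (chr7:66489439-66802919), which like Adamts10 is linked to Weill-Marchesani syndrome, was at 0.184, 0.288, 0.193, 0.291 and 0 CPM in vehicle sham mice and at 1.16, 1.61, 1.13, 1.97 and 0.971 CPM in vehicle MOV mice. Adamts17 values in D + Q mice were 0.0525, 0.243, 0.439, 0.243 and 0.407 CPM with sham surgery and 2.85, 1.26, 3.503, 1.70 and 1.77 CPM with MOV. For Adamts17 every MOV mouse lay above every sham mouse of its treatment. Adamts17 rose by a log2 fold change of 2.81 ± 0.46 with vehicle (SE; edgeR adjusted p = 8.36e-05) and 3.01 ± 0.41 with D + Q (edgeR adjusted p = 3.89e-06).

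Adamts16 (chr13:70875915-70989935), which cuts fibronectin, was at 0.138, 0.575, 0.516, 0.466 and 0.706 CPM in vehicle sham mice and at 6.70, 3.58, 8.05, 7.44 and 4.60 CPM in vehicle MOV mice. Adamts16 values in D + Q mice were 0.157, 0.791, 1.02, 0.825 and 0.458 CPM with sham surgery and 4.89, 5.19, 9.82, 7.81 and 7.88 CPM with MOV. For Adamts16 every MOV mouse lay above every sham mouse of its treatment. Adamts16 rose by a log2 fold change of 3.69 ± 0.33 with vehicle (SE; edgeR adjusted p = 3.25e-07) and 3.48 ± 0.32 with D + Q (edgeR adjusted p = 1.66e-07). Adamts19, a gene required in heart valves, had 1 count in 1 vehicle sham mouse and 0 counts in the other 4, and was at 1.53, 0.778, 1.55, 3.63 and 2.95 CPM in vehicle MOV mice. Over the 5 mice of a group this is 239 counts against 1, a ratio of 189.5 per unit of depth (95% counting interval 33.7 to 7517). Adamts19 values in D + Q mice were 0.157, 0.304, 0.0975, 0.243 and 0.0509 CPM with sham surgery and 2.35, 2.37, 3.03, 1.25 and 3.89 CPM with MOV. Every MOV mouse lay above every sham mouse in both treatments for Adamts19, and the fitted log2 fold change was 6.92 with vehicle (edgeR adjusted p = 1.7e-06), a size that depends on the prior count and is no bound, and 3.95 ± 0.41 with D + Q (edgeR adjusted p = 1.71e-07).

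ADAMTS-like proteins have no protease domain. Adamtsl1 (chr4:85432409-86346622), known as punctin, was at 2.53, 3.34, 3.09, 3.43 and 3.59 CPM in vehicle sham mice and at 7.39, 5.44, 9.56, 9.97 and 8.53 CPM in vehicle MOV mice. Adamtsl1 values in D + Q mice were 2.57, 4.20, 3.66, 4.61 and 3.26 CPM with sham surgery and 13.0, 11.2, 10.7, 9.01 and 10.4 CPM with MOV. For Adamtsl1 every MOV mouse lay above every sham mouse of its treatment. Adamtsl1 rose by a log2 fold change of 1.37 ± 0.18 with vehicle (SE; edgeR adjusted p = 9.47e-06) and 1.62 ± 0.15 with D + Q (edgeR adjusted p = 4.07e-08). Adamtsl2 (chr2:26949885-26998993), which binds fibrillin-1 and LTBP1, was at 1.24, 0.288, 0.451, 1.34 and 1.35 CPM in vehicle sham mice and at 2.49, 2.13, 2.54, 5.77 and 2.95 CPM in vehicle MOV mice. Adamtsl2 values in D + Q mice were 1.10, 0.791, 1.07, 0.243 and 1.07 CPM with sham surgery and 3.17, 2.18, 4.23, 3.97 and 4.03 CPM with MOV. For Adamtsl2 every MOV mouse lay above every sham mouse of its treatment. Adamtsl2 rose by a log2 fold change of 1.76 ± 0.40 with vehicle (SE; edgeR adjusted p = 0.00156) and 2.08 ± 0.30 with D + Q (edgeR adjusted p = 8.19e-06). Adamtsl5 (chr10:80174944-80184936), which binds fibrillin microfibrils, was at 38.3, 54.1, 52.0, 36.8 and 43.2 CPM in vehicle sham mice and at 57.7, 56.9, 55.3, 55.4 and 64.5 CPM in vehicle MOV mice. Adamtsl5 values in D + Q mice were 48.6, 42.2, 38.9, 35.0 and 46.8 CPM with sham surgery and 45.9, 53.9, 48.4, 47.9 and 52.2 CPM with MOV. For Adamtsl5 the vehicle groups did not overlap and the D + Q groups did, and both differences were called (log2 fold change 0.38 ± 0.10, edgeR adjusted p = 0.00481, and 0.28 ± 0.08, edgeR adjusted p = 0.00578).

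Adamtsl4 (chr3:95583509-95595231), which binds fibrillin-1 and is needed for the fibers that hold the lens, was at 20.2, 32.6, 24.7, 23.1 and 20.9 CPM in vehicle sham mice and at 33.3, 31.8, 27.0, 26.8 and 22.9 CPM in vehicle MOV mice. Adamtsl4 values in D + Q mice were 22.9, 24.3, 21.0, 20.5 and 24.2 CPM with sham surgery and 37.9, 31.3, 30.2, 35.3 and 31.5 CPM with MOV. For Adamtsl4 the log2 fold change was 0.24 ± 0.13 with vehicle, where the groups overlapped (edgeR adjusted p = 0.146). Without vehicle sham mouse 2 it was 0.36 (edgeR adjusted p = 0.0122). With D + Q it was 0.61 ± 0.08, and the groups did not overlap (edgeR adjusted p = 2.14e-06). Adamtsl3 (chr7:81984645-82263658), another matrix protein of this group, was at 3.404, 3.45, 3.03, 6.23 and 4.59 CPM in vehicle sham mice and at 6.70, 2.54, 7.53, 7.92 and 5.66 CPM in vehicle MOV mice. Adamtsl3 values in D + Q mice were 4.41, 4.75, 6.14, 3.98 and 6.01 CPM with sham surgery and 9.42, 6.07, 9.10, 7.90 and 9.34 CPM with MOV. For Adamtsl3 the groups overlapped in both treatments, and the log2 fold change was 0.57 ± 0.28 with vehicle (edgeR adjusted p = 0.0968) and 0.77 ± 0.15 with D + Q (edgeR adjusted p = 0.000251). The value with vehicle passed the threshold without vehicle MOV mouse 2, its lowest MOV mouse (0.77, edgeR adjusted p = 0.00366), or without vehicle sham mouse 4 (0.76, edgeR adjusted p = 0.0319).

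**Figure D4:**
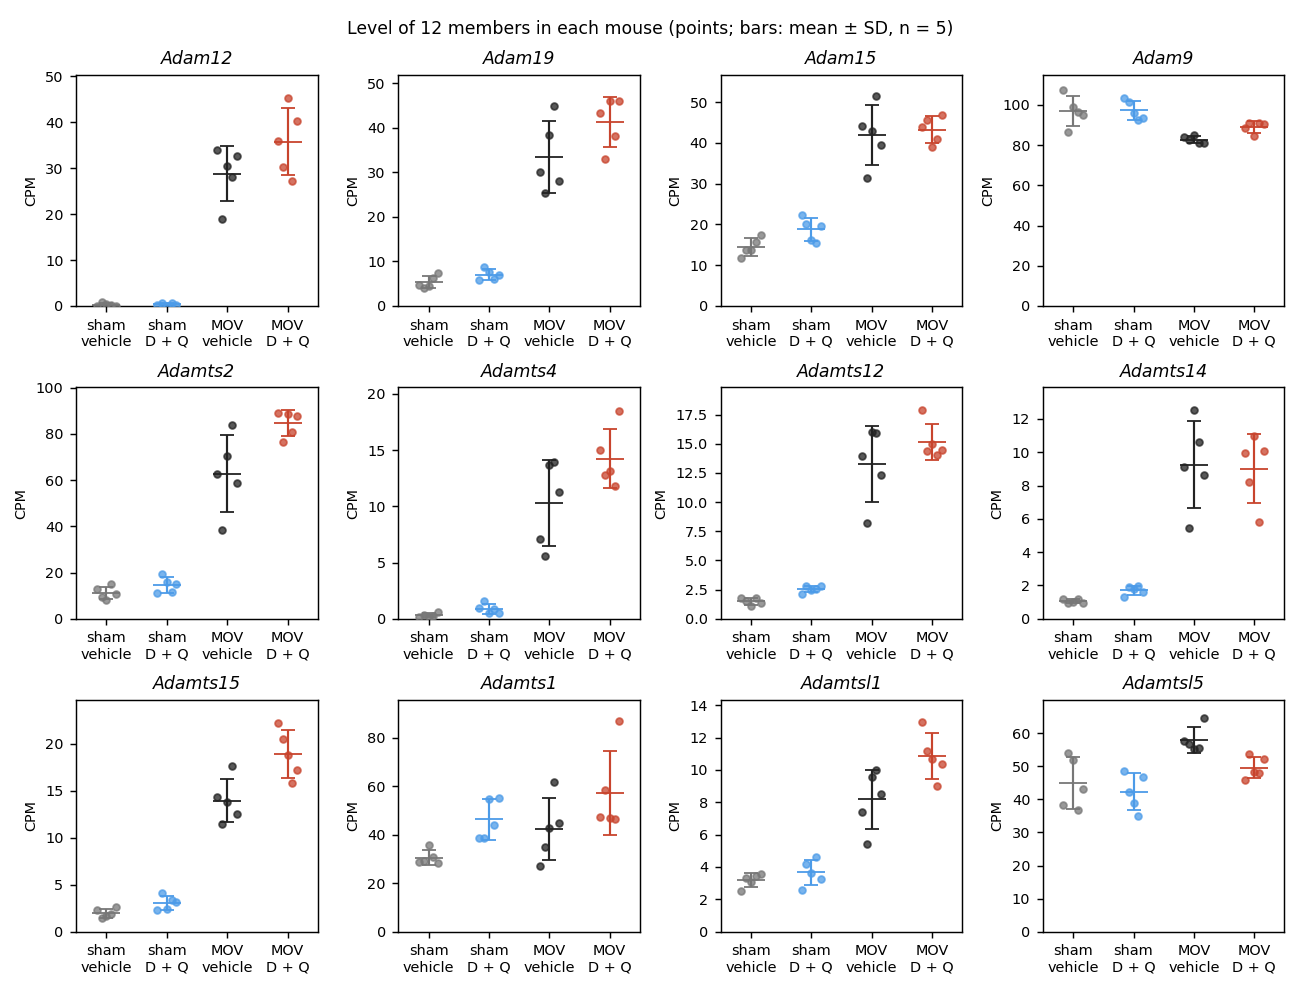
CPM of 12 of the members given in full in each of the 20 mice, by group, with the group mean and SD. With vehicle, mean CPM in MOV mice was 102 times that in sham mice for Adam12 and 32.2 times for Adamts4. Adam9 lies slightly lower in MOV mice, a direction that turns when counts are scaled by library totals alone.

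The second question was whether D + Q changed the family in overloaded muscle. Between D + Q MOV and vehicle MOV mice, edgeR called 0 of 34 members higher and 0 lower, as it did for 0% of all 15238 genes in either direction, and DESeq2 called 0 members in either direction as well (0.0394% of all genes higher and 0.0263% lower). At an unadjusted p under 0.05 there were 5 members higher (4.19% of all genes) and 1 lower (4.61%) by edgeR, and 7 (4.48%) and 1 (5.37%) by DESeq2. The 5 were Adamts15 (0.43 ± 0.12 log2), Adamts2 (0.42 ± 0.16), Adamts17 (0.69 ± 0.30), Adamtsl1 (0.40 ± 0.15) and Adamtsl4 (0.22 ± 0.10), each with an edgeR adjusted p of 0.523 to 0.558. The count of 5 became 12 without vehicle MOV mouse 4 (9.63% of all genes), 3 without vehicle MOV mouse 5 (3.29%) and 2 without D + Q MOV mouse 1 (2.97%), and the count of 1 became 2 without D + Q MOV mouse 3 (3.21%). Adamtsl5 was the member at the lower side, with 45.9, 53.9, 48.4, 47.9 and 52.2 CPM in D + Q MOV mice and 57.7, 56.9, 55.3, 55.4 and 64.5 CPM in vehicle MOV mice. It was the 1 member in which every D + Q MOV mouse lay below every vehicle MOV mouse (0.755% of all genes; log2 fold change -0.23, 95% interval -0.38 to -0.08, edgeR adjusted p = 0.523), and in 0 members did every D + Q mouse lie above (0.748%). For Adamts1 the difference was 0.43 on the log2 scale (95% interval -0.10 to 0.96, edgeR adjusted p = 0.617), with 46.4 to 87.1 CPM in D + Q MOV and 27.1 to 61.7 CPM in vehicle MOV mice. With a mouse left out the Adamts1 difference ranged from 0.23 (without D + Q MOV mouse 5) to 0.60, with an edgeR adjusted p of 0.242 to 0.874. The median over the 34 members was 0.17, where that of all genes was 0.00, and it became 0.08 without vehicle MOV mouse 2 and 0.26 without vehicle MOV mouse 4.

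In sham muscle, edgeR called 0 of the 29 members tested higher with D + Q than with vehicle, against 0.187% of all 13926 genes, and 0 lower, against 0.0287%. At an unadjusted p under 0.05 there were 9 members higher (5.39% of all genes) and 1 lower (4.8%). DESeq2 called 1 member higher, Adamts1 (0.646% of all genes), and 0 lower (0.151%), with 10 (5.54%) and 1 (4.62%) at an unadjusted p under 0.05. The 9 were Adam10, Adam15, Adam19, Adamts1, Adamts4, Adamts9, Adamts12, Adamts14 and Adamts15, and the member on the lower side was Adamts20 (-0.49 ± 0.23 log2, edgeR adjusted p = 0.481), at -0.30 without vehicle sham mouse 3. The count of 1 lower became 0 without D + Q sham mouse 2, 3 or 5 or vehicle sham mouse 1, 3 or 5 (3.9% to 4.83% of all genes), and 2 without vehicle sham mouse 2 (3.86%). Adamts1 had the lowest p of them, at a log2 fold change of 0.59 ± 0.11 (95% interval 0.35 to 0.83, edgeR adjusted p = 0.0564). Its values were 38.5 to 55.3 CPM with D + Q and 28.2 to 35.7 CPM with vehicle, with no overlap. By DESeq2 the adjusted p of Adamts1 was 0.000324, and over the alternatives with all mice it ranged from 0.000324 to 0.376 in edgeR or DESeq2. Without D + Q sham mouse 1 or 2 the edgeR adjusted p was 0.0347 and 0.0464. Without any other mouse it did not pass the threshold, and it rose to at most 0.183. Adamts12 (2.15 to 2.85 CPM with D + Q, 1.10 to 1.80 with vehicle) and Adamts14 (1.31 to 1.99 and 0.920 to 1.196) did not overlap either, which made 3 members higher in every D + Q mouse (1.34% of all genes). Adamts6, chosen after its values were seen, was the 1 member lower in every D + Q mouse (0.776% of all genes), at 0.892 to 1.60 CPM with D + Q and 1.65 to 2.16 CPM with vehicle (edgeR adjusted p = 0.505). Adamts4 had the largest fitted difference, 1.44 ± 0.44, with an edgeR adjusted p of 0.239 and 1 vehicle value inside the D + Q range. Only 1 vehicle sham mouse reached 10 counts in Adamts4, against 5 D + Q sham mice, so it passed the filter only through the group where it was higher. The median over the 29 members was 0.19, where that of all genes was 0.00, and it became 0.29 without D + Q sham mouse 1 and 0.32 without vehicle sham mouse 4.

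The interaction asks whether the change with MOV differed between D + Q and vehicle mice. In edgeR it called 0 of 34 members in either direction, against 0.00637% of 15700 genes each way, and DESeq2 called 0 as well (0.00637% each way). At an unadjusted p under 0.05 edgeR gave 1 member with a larger change under D + Q (2.54% of all genes) and 3 with a smaller one (3.17%), and DESeq2 gave 1 (3.05%) and 4 (3.06%). The count of 3 became 6 without D + Q sham mouse 3 (3.2% of all genes) or vehicle MOV mouse 2 (3.61%), and 5 without D + Q sham mouse 4 (3.01%) or 5 (2.95%) or vehicle sham mouse 5 (3.33%). It fell to 2 without vehicle MOV mouse 3 (3.94%) or vehicle sham mouse 3 (3.19%). The count of 1 became 0 without any 1 of 7 mice (D + Q MOV 4, D + Q sham 1 and 3, vehicle MOV 3 and 5 and vehicle sham 2 and 3), where 2.31% to 2.97% of all genes were at that side. Adamtsl4 was the former, at 0.34 ± 0.16 on the log2 scale (edgeR adjusted p = 0.855), and at 0.21 without vehicle sham mouse 2. The latter were Adamts14 (-0.75 ± 0.30), Adamts12 (-0.56 ± 0.24) and Adamts19 (-3.03, whose vehicle sham group held 1 count, and -4.57 without the mouse that held it), with an edgeR adjusted p of 0.809, 0.809 and 0.791. Over all 34 members the median was -0.05, where that of all genes was -0.01. It ranged from -0.16 (without vehicle MOV mouse 2) to 0.04 (without vehicle MOV mouse 4) with a mouse left out, and was also above 0 without D + Q MOV mouse 2 (0.03) and D + Q sham mouse 2 (0.00).

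**Figure D5:**
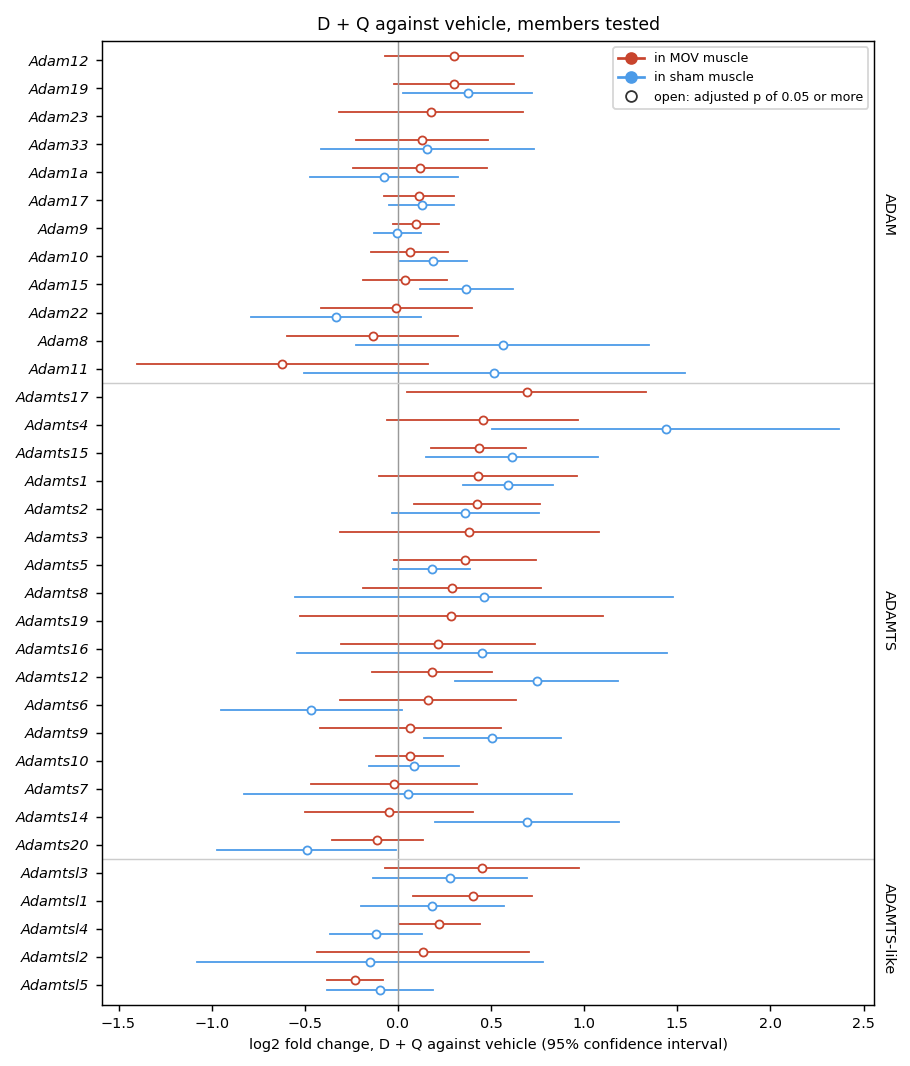
Log2 fold change of each tested member between D + Q and vehicle mice with its 95% interval, in sham and in MOV muscle. Adamts1 in sham (0.59) and Adamtsl5 in MOV (-0.23) are among the intervals that lie clear of 0, and edgeR called no member after adjustment.

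Genes that act with the family were counted in 4 lists, beside 30.7% of all genes higher and 29.8% lower with MOV in vehicle mice and 34.4% and 30.9% in D + Q mice. Of the 20 tested inhibitors and maturation factors, 11 were higher and 2 lower with MOV in vehicle mice, and 14 and 4 in D + Q mice. Timp1, a secreted metalloproteinase inhibitor, had the largest rise (6.05 ± 0.45 log2 with vehicle, edgeR adjusted p = 9.22e-07), and Timp4 had the largest fall (-1.08 ± 0.34, edgeR adjusted p = 0.0199). Timp3, the inhibitor of ADAM17 and the aggrecanases, stood at -0.19 with vehicle (edgeR adjusted p = 0.12) and 0.16 with D + Q (edgeR adjusted p = 0.0191). Of 29 tested substrates that ADAM proteases shed, 21 were higher and 3 lower with vehicle, and 22 and 3 of 30 with D + Q. Sdc1, a cell surface proteoglycan, had the largest rise (3.50 ± 0.18, edgeR adjusted p = 1.86e-09), and Btc, an EGF receptor ligand, the largest fall (-1.13 ± 0.34, edgeR adjusted p = 0.01). Notch1, which ADAM10 cuts, was at 0.71 ± 0.13 (edgeR adjusted p = 0.000202).

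All 31 tested substrates and matrix partners of ADAMTS and ADAMTS-like proteins were higher with MOV in vehicle mice, and all 33 in D + Q mice. Of these, 3 (Acan, Fbn2 and Ltbp2) with vehicle and 4 (Acan, Bcan, Matn3 and Fbn2) with D + Q reached 10 counts only in MOV mice and so had to come out higher. The largest fitted rise was in Fbn2, a fibrillin, which had at most 2 counts in any vehicle sham mouse and 20.2 ± 5.96 CPM (SD) in vehicle MOV mice, so that its fitted size (8.35 log2, edgeR adjusted p = 2.93e-09) depends on the prior count. Col1a1, a type I procollagen chain that Adamts2 trims, rose by 5.58 ± 0.21 on the log2 scale (edgeR adjusted p = 1.38e-09). Vcan, the versican gene, rose by 3.59 ± 0.21 (edgeR adjusted p = 8e-08), and Comp by 3.04 ± 0.23 (edgeR adjusted p = 4e-07). Of 14 tested genes of the other metzincin families (MMP, BMP1 and tolloid proteases), 12 were higher and 0 lower with vehicle, and 12 and 1 with D + Q. Among those, Mmp16 and Mmp17, and with vehicle Tll1, reached 10 counts only in MOV mice. The largest rise there was in Mmp23 (3.79 ± 0.24, edgeR adjusted p = 1.95e-08). Between D + Q and vehicle in MOV muscle, edgeR called 0 genes of the 4 lists. The unadjusted counts, higher (4.19% of all genes) and lower (4.61%), were 3 and 1 of the 20 inhibitors and maturation factors, 1 and 0 of the 33 shed substrates, 16 and 0 of the 33 matrix substrates and 4 and 0 of the 13 other proteases. In sham muscle the unadjusted counts (5.39% of all genes higher and 4.8% lower) were 1 and 0 of 19, 5 and 0 of 28, 17 and 0 of 27 and 4 and 0 of 11 in the same order. There edgeR called 2 genes of the lists, Thbs1 (0.81 ± 0.13, adjusted p = 0.0199) and Mmp14 (0.71 ± 0.11, adjusted p = 0.0177), both higher with D + Q. Sdc4 is in the lists of shed and of matrix substrates, and Cdh5, Kdr, Notch3, Fmod, Acan, Col2a1 and Sdc4 are also in lists of cell type markers.

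Markers of several cell types in the muscle moved with MOV as well, and their part in the results on the family was not tested. Counts of called markers are for MOV against sham in vehicle mice, where 30.7% of all genes were higher and 29.8% lower. Summed marker levels are given in the order sham with vehicle, sham with D + Q, MOV with vehicle and MOV with D + Q. The 8 myofiber markers stood at 144660.2, 149780.2, 96023 and 88793 CPM, led by Myh4, and 4 of the 8 were lower and 1 higher with MOV in vehicle mice. The 8 fibroblast and fibro-adipogenic markers stood at 195, 244, 745 and 911 CPM, led by Dpt, with 7 of the 8 higher. Tenocyte markers were at 49.7, 67.8, 203 and 280.1 CPM, led by Fmod, with 5 of 5 higher, and macrophage markers at 25.8, 29.0, 149 and 186 CPM, led by Csf1r, with 6 of 6 higher. Endothelial markers, led by Pecam1, were at 155, 177, 239 and 236 CPM (5 of 7 higher), those of smooth muscle and pericytes, led by Rgs5, at 323, 358, 423 and 433 CPM (4 of 6 higher) and those of satellite cells, led by Sdc4, at 51.9, 56.3, 69.1 and 76.9 CPM (4 of 5 higher). Slow myofiber markers, led by Myh7, were at 221, 129.7, 622 and 607 CPM (2 higher and 1 lower of 4), where vehicle sham mouse 3 stood at 571 CPM and the mean of that group without it was 133 CPM. The chondrocyte and bone markers, led by Acan, were at 1.46, 1.77, 13.1 and 15.6 CPM (3 of 3 tested higher), and Ibsp and Bglap were not among the genes analysed here. Adipocyte markers, led by Adipoq, were at 9.73, 8.72, 3.15 and 4.41 CPM (3 of 3 tested lower), Schwann markers, led by Mbp, at 19.8, 24.5, 22.2 and 21.4 CPM (1 of 4 higher), T and NK cell markers, led by Cd3e, at 2.02, 1.98, 3.82 and 2.87 CPM (1 of 2 tested higher) and neutrophil markers, led by S100a9, at 0.830, 1.15, 2.19 and 0.762 CPM (1 of 2 tested higher, with Ly6g not analysed here). Without D + Q sham mouse 4, at 3.06 CPM, the neutrophil mean of its group was 0.672 CPM. In D + Q mice the calls differed for myofiber (1 higher and 5 lower of 8) and slow myofiber markers (3 and 0 of 4). They also differed for Schwann (1 and 1 of 4), adipocyte (0 and 1 of 3) and neutrophil markers (0 and 0 of 1 tested). Of all genes, 34.4% were higher and 30.9% lower there.

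Among the vehicle MOV mice, mouse 4 had the highest value of its group in 24 of the 34 members (29.8% of all genes), and mouse 2 had the lowest in 22 of 34 (27.4% of all genes). The same mice were at the ends of the fibroblast, macrophage and myofiber sums but not of every marker sum, since mouse 2 had the highest endothelial sum (251 CPM). Mouse 4 had 1096 CPM of fibroblast markers, 212 CPM of macrophage markers and 79206 CPM of myofiber markers, and mouse 2 had 532, 71.0 and 110863 CPM. The other 3 vehicle MOV mice lay between them in all 3 sums. In sham muscle with D + Q, 3 of 8 fibroblast, 3 of 5 tenocyte, 2 of 7 endothelial and 2 of 6 smooth muscle and pericyte markers were higher at an unadjusted p under 0.05 (5.39% of all genes), and those of the other types were not. In MOV muscle with D + Q, 3 of 5 tenocyte, 1 of 8 fibroblast, 1 of 5 satellite cell and 1 of 6 macrophage markers were higher at that p (4.19%), and 1 of 8 myofiber, 1 of 2 neutrophil and 1 of 3 T and NK cell markers were lower (4.61%). After adjustment edgeR called 0 markers in either comparison. Without vehicle MOV mouse 4, edgeR called 28 members higher between MOV and sham with vehicle (29.1% of all genes), and without vehicle MOV mouse 2 it called 30 (31.2%).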

How the data were processed

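RNA was measured in plantaris muscle of 20 mice, 5 per group, grouped by the labels. The authors aligned reads with STAR 2.7.8a to GRCm39 and deposited estimated counts from Partek's expectation-maximization quantifier, without normalization. Whether the counting used strand is not given in the sources used here. Every gene sums to at least 10 counts over the mice, and 20 of the table's entries repeat a gene name. The 29.8% of values that are not whole were rounded. Totals of 17887532 to 26234518 per mouse limit the precision of low values, and the floor was set at 3 counts per mouse. No pair of libraries within a group agreed within sampling noise.

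Each comparison was fitted on the whole table with edgeR 4.0.16 (R 4.3.3, quasi-likelihood, robust, TMM) on genes that reached 10 counts in 5 or more of its mice. P-values were adjusted by Benjamini-Hochberg over all genes tested, and the threshold was 0.05. The 4 group comparisons used their own 10 mice and the interaction all 20. Comparisons that share a group are not independent. The SE is the log2 fold change divided by the root of F, and intervals are 95%. Exon lengths come from GENCODE vM39. Alternatives were RLE factors, total counts only, DESeq2 1.42.0, no filter, a minimum of 20 counts, all 20 mice in one fit, the replicate number as a block, and each mouse left out in turn.

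Members given in full are those called and at least 2-fold changed in either MOV comparison, those at an unadjusted p under 0.05 in a D + Q comparison or the interaction, Adamts1, which the paper names, and the 3 of each subfamily with the highest level per kilobase. In each list of other genes, those with the largest rise and fall with MOV in vehicle mice, direct substrates and genes called between D + Q and vehicle are named. Members and lists were chosen with earlier results of these data known.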

Additional observations from a re-analysis of the deposited data

Results flagged for a closer look

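Of 120 groups of 5 values (30 members in 4 groups), 5 held a mouse that stood apart from the rest, where chance alone gives about 1 in 20 groups, or 6. Adamts9 in D + Q sham mouse 4 was low, at 3.4 CPM, with the next value at 4.15. Adamtsl2 in vehicle MOV mouse 4 was high, at 5.77 CPM, with the next at 2.95. Adamtsl5 in vehicle MOV mouse 5 was high, at 64.5 CPM, with the next at 57.7. Adamts12 in D + Q MOV mouse 1 was high, at 17.9 CPM, with the next at 15.0. Adamts19 in vehicle sham mouse 4 was at 0.0582 CPM, which is 1 count, with the other mice at 0.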

How the results depend on the processing

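The members called higher with MOV numbered 27 to 33 with vehicle and 28 to 33 with D + Q over the alternatives with all mice (DESeq2 included). Of all genes, 22.9% to 52.6% were higher there with vehicle and 26% to 56.3% with D + Q. The number of members tested differed between these settings. With a minimum of 20 counts, 27 of 32 members were higher with vehicle (31.3% of all genes) and 28 of 33 with D + Q (35.2%). With no filter 30 of 41 were higher in each treatment (22.9% and 26%), and with total counts only 33 of 34 (52.6% and 56.3%). With a mouse left out, 28 to 30 and 29 to 30 members were higher, against 29% to 31.2% and 32.7% to 33.7% of all genes. The count called lower with vehicle was 0 under total counts only (9.95% of all genes). It was 1 to 2 with a mouse left out, 2 without vehicle MOV mouse 4 (28.5%). With D + Q it was 1 (Adam9, -0.13, edgeR adjusted p = 0.0437) with all 20 mice in one fit (31.8% of all genes), where total counts only turned Adam9 to 0.28. In sham mice the count higher with D + Q was 1, Adamts1, with total counts only (0.323% of all genes), DESeq2 (0.646%) and no filter (0.251%). It was 0 to 1 with a mouse left out (0.0144% to 0.416%). The cause was not tested.

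Among members called, or at an unadjusted p under 0.05, and those named beside them, directions turned in 4 cases. Under total counts only Adam9 stood at 0.17 with vehicle (edgeR adjusted p = 0.0357) and 0.28 with D + Q (edgeR adjusted p = 7.3e-05), and Adam22 at 0.00 (0.001817 unrounded). The interaction of Adamts1 ranged from -0.37 to 0.01 (0.00758 unrounded) with a mouse left out, and turned without vehicle MOV mouse 4. The cause was not tested.

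Over all 41 members and all alternatives calls changed in 35 cases, 25 of them gained, 9 lost and 1 turned (Adam9 with vehicle under total counts only, at 0.17). The 9 were all Adamts1 with MOV in vehicle mice, 7 with a mouse left out, 1 with no filter (edgeR adjusted p = 0.0783) and 1 with all 20 mice in one fit (edgeR adjusted p = 0.057). Of the 25, 3 were of members that the count filter kept out, Adam5 in both treatments and Adamts18 with vehicle.

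The labels do not say that the replicate numbers pair the mice. Same-numbered mice correlated at -0.215 to 0.232, and 2 of 20 pairs were over 0.1. Mice with different numbers were not compared, so these values cannot decide whether the numbers carry a pairing. With the number as a block, the count higher with D + Q in sham mice was 1 (Adamts1, edgeR adjusted p = 0.0257), against 0.122% of all genes. That with MOV in D + Q mice was 30, adding Adamts1 (edgeR adjusted p = 0.0479), against 33.5% of all genes. Other adjusted counts of members did not change.

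At these depths, members under about 10 counts in most mice were tested only with no filter.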
